A study of Saccharomyces cerevisiae with 3 samples.

Results

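Transcripts of budding yeast mother cells of the 4th generation were compared with those of the 1st generation on a single two-colour array. The comparison takes in all 5792 features for yeast genes that this array carries, and the array is 1 of 3 in the study. Older cells were labelled with Cy3 and cells of the 1st generation with Cy5 in each case, and the other two arrays hold the 7th and the 11th generation. All cells, young and old, were of strain BY4742, an alpha haploid used widely in the laboratory that carries deletions in HIS3, LEU2, LYS2 and URA3, and they were tagged with biotin, grown in rich YPD medium at 30°C and, for the older generations, collected on biotin-binding beads. The labels say neither how cells of the 1st generation were prepared nor whether one RNA served all arrays.

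A budding yeast mother cell divides asymmetrically and produces a limited number of daughters before it stops, which is called replicative ageing. A tag on the cell wall stays with the mother, because the wall of the bud is made anew, so tagged cells can be recovered after several divisions. Ageing mothers are known for changes in iron handling, mitochondria, vacuolar acidity and the nucleolus, mostly described in cells much older than those measured here.

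Each value below is log2 of Cy3 over Cy5 after background correction and loess normalisation within each print block, so a positive value means more transcript in the 4th generation cells. With 1 array there is no replicate, no error and no test, and precision is limited by the number of arrays. The dyes were not swapped, so for any probe the effects of dye and of generation cannot be told apart. The same holds for collection on beads, since the labels do not say how cells of the 1st generation were prepared. In RNA from a whole population, fewer cells that express a gene and less of its RNA per cell cannot be told apart either. Counts are of features that differed at least 2-fold and whose signal exceeded the blank spots in one channel or both. The raw Cy3 signal was generally the brighter one, with a median over features of 523 against 177 for Cy5. At ordinary signals a gene with equal raw signals in both channels therefore had a ratio well below that of most features. The normalisation depends on signal, so this does not hold for the brightest genes. RPL38, with raw signals of 20098 in Cy5 and 20355 in Cy3, was at 0.04, and PDC1, with 56251 and 57797, was at 0.46.

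The 8 spots for actin, ACT1, which lie in 8 print blocks, give the only repeated measurement on the array: their mean log2 ratio was 0.18 with an SD of 0.18, from -0.11 to 0.48. That SD covers spots of one hybridisation and not separate cultures. Before normalisation the median log2 ratio of a print block ran from 0.83 to 1.61, with a median of 0.91 over odd blocks and 1.39 over even blocks. After normalisation both were 0.01. The mating type and the deletions were read from marker genes. The 4 alpha-specific genes gave raw Cy5 signals of 1024 to 8314. The 7 genes specific to a cells, which are off in alpha cells, gave 37.8 to 83.8, where the blank limit was 32.2. LEU2 was not above the blank spots in either channel, LYS2 was above them in Cy5 only at 38.2, and URA3 was above them in both at 38.9 and 71.4. HIS3 gave 435 in Cy5 and 654 in Cy3. Its probe may lie outside the deletion, so HIS3 gives no check.

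**Figure D1:**
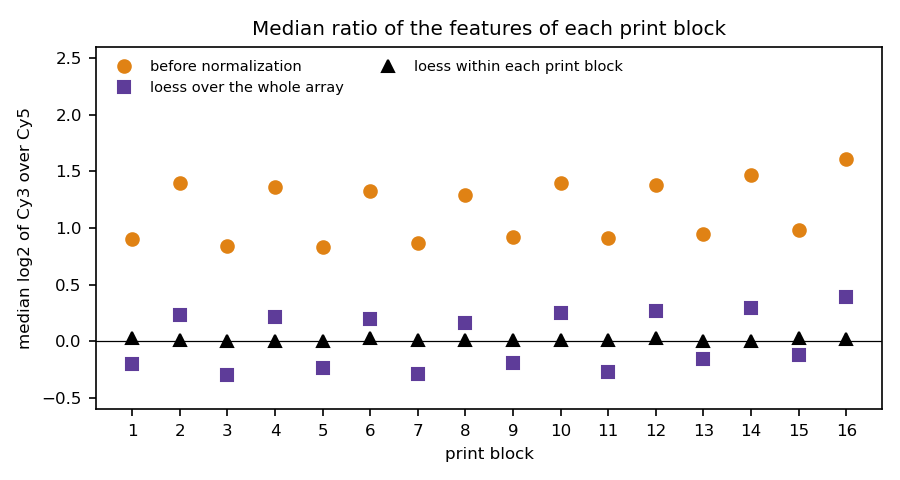
Median log2 ratio of Cy3 over Cy5 of the features in each of the 16 print blocks of the 4th generation array, before normalisation (circles), after loess over the whole array (squares) and after loess within each block (triangles). Odd and even blocks alternate between lower and higher medians until each block is normalised on its own, after which all medians lie between 0.00 and 0.03.

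At the 4th generation 123 of the 5659 features above background, 2.17%, were at least 2-fold higher than at the 1st, and 141, 2.49%, were at least 2-fold lower. Most features lay close to 0: 82.1% were within 1.5-fold, and the SD over all features was 0.49 around a median of 0.01. The carbonic anhydrase gene NCE103 was the highest at 8.0-fold, and YKR075C, of unknown function, was the lowest at 7.43-fold lower. Among the 123 features at least 2-fold higher, 66 lay in even blocks, and among the 141 lower, 79 lay in odd blocks. Each block held 359 to 367 feature spots, so odd and even blocks had near-equal shares of all features. Single blocks held from 1 to 16 higher features and from 2 to 17 lower ones. The limit of 2-fold has no natural gap beside it. MCO32 and PTP2 lay just inside it on the high side at 1.001 and 1.004, with RRP17 and YIL055C just outside at 0.994 and 0.988. On the low side SSU1 and PMT1 lay inside at -1.002 and -1.004, with TRA1 and OLA1 outside at -0.998 and -0.993.

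Dim features could hardly pass the limit, since the offset added in background correction pulls low signals towards a ratio of 1. Among the dimmest features, the lowest of 4 equal groups by signal, with a median raw Cy5 signal of 49.2, 1 feature was higher and 7 were lower. In the brightest of these groups, with a median of 989, the counts were 63 and 53. A gene absent from the counts below may therefore be only dim.

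**Figure D2:**
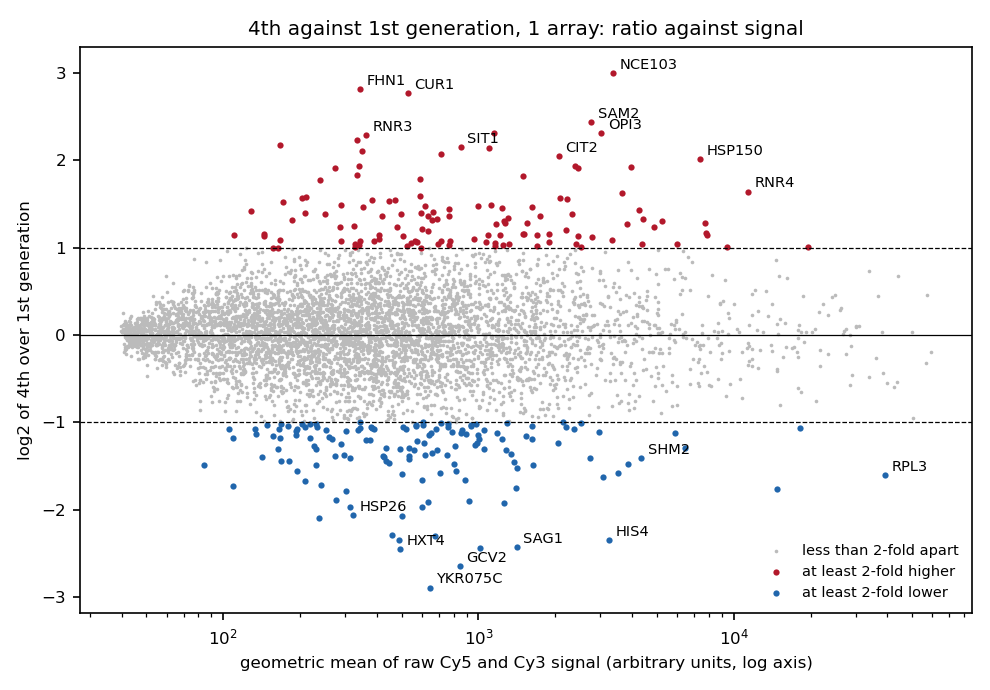
Log2 ratio of the 4th over the 1st generation (vertical axis) against the geometric mean of the raw signals in both channels (horizontal log axis, arbitrary units) for the 5659 features above background on 1 array. Red points are the 123 features at least 2-fold higher, blue points the 141 at least 2-fold lower, and the dashed lines mark 2-fold. The spread narrows towards dim features on the left.

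The 15 highest features held genes of carbon dioxide handling, methyl donor and phospholipid synthesis, iron uptake, protein quality control and the cell wall. NCE103 (YNL036W), which hydrates carbon dioxide to bicarbonate, had raw signals of 698 in Cy5 and 16297 in Cy3, a log2 ratio of 3.00. FHN1 (YGR131W), a homologue of the eisosome protein NCE102, had 77.7 and 1524, a log2 ratio of 2.81. CUR1 (YPR158W), which helps sort misfolded proteins, had 126 and 2217, a log2 ratio of 2.77. With plain subtraction of the blank signal FHN1 at 3.66, CUR1 at 3.25 and YHL048C-A at 4.67 were above NCE103 at 3.01. In the authors' deposited values NCE103 was at 3.04, below named genes that included FHN1 at 3.31, RNR3 at 3.29, VHT1 at 3.11 and YHL048C-A at 5.06. In these values centred by block NCE103 was at 2.55, and CUR1 at 3.16 was above it as well. The order at the top thus depends on the processing. SAM2, at 2.44, and OPI3 act one after the other in methyl transfer: the first makes S-adenosylmethionine and the second uses it to methylate phospholipids to phosphatidylcholine. OPI3 was at 2.31, from raw signals of 997 and 9224. RNR3, an inducible large subunit of ribonucleotide reductase, followed at 2.29, and CIT2, the peroxisomal citrate synthase, was at 2.05. ARO10, a decarboxylase that breaks down aromatic amino acids, was at 2.14. HSP150, a glucan-linked wall protein, was at 2.01, from 2514 and 21682. The other members were the siderophore transporter SIT1, the mRNA-binding protein TIS11, MNC1 and the little-studied YBR085C-A, YEL073C and YHL048C-A, between 2.07 and 2.31.

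The 15 lowest features held genes of one-carbon and nucleotide metabolism, sugar uptake and mating. YKR075C had raw signals of 1198 in Cy5 and 347 in Cy3, a log2 ratio of -2.89. GCV2 (YMR189W), the decarboxylase of the glycine cleavage system, had 1156 and 615, a log2 ratio of -2.64. HXT4 (YHR092C), a glucose transporter, had 809 and 303, a log2 ratio of -2.45. All 3 were brighter in the Cy5 channel than in Cy3, against the general order of the channels. RPL22B, a paralog of a ribosomal protein of the large subunit, was at -2.44, and the multifunctional histidine enzyme HIS4 was at -2.35. The mating agglutinin SAG1 and AGA1, the wall anchor of the agglutinin of the other mating type, were at -2.43 and -2.34. Also among the lowest were the purine gene ADE1 at -2.30, the uridine permease FUI1 at -2.29, the DNA polymerase alpha subunit POL12 at -2.09 and the small heat shock protein HSP26 at -2.06. NFG1, the ornithine transaminase CAR2, YOL013W-B and the purine-cytosine permease FCY2 closed the set between -2.07 and -1.92.

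The arrays of the 7th and 11th generation may share the 1st generation RNA, so their values are given side by side only. NCE103 read 3.00, 3.46 and 4.27 at the 4th, 7th and 11th generation. CIT2 read 2.05, 3.08 and 4.15, and SAG1 read -2.43, -2.87 and -3.87. Other genes had their largest value at the 4th generation. CUR1 read 2.77, 2.37 and 1.87, SAM2 2.44, 2.22 and 1.90, and GCV2 -2.64, -2.36 and -2.04. HSP26 changed side, at -2.06, -0.93 and 0.75. ARO10 was 2.14 and 2.25 at the 4th and 7th generation but -0.10 at the 11th, and its raw Cy3 signal was 3616, 3303 and 781. TPO4, a polyamine exporter of the plasma membrane, did likewise at 1.83, 1.59 and -0.11, with raw Cy3 signals of 1354, 987 and 125. In both, the Cy3 signal at the 11th generation was the low one. The raw Cy5 signal of TPO4 was also lowest there, at 82.8, 72.1 and 41.8, and that of ARO10 was 334, 269 and 265.

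**Figure D3:**
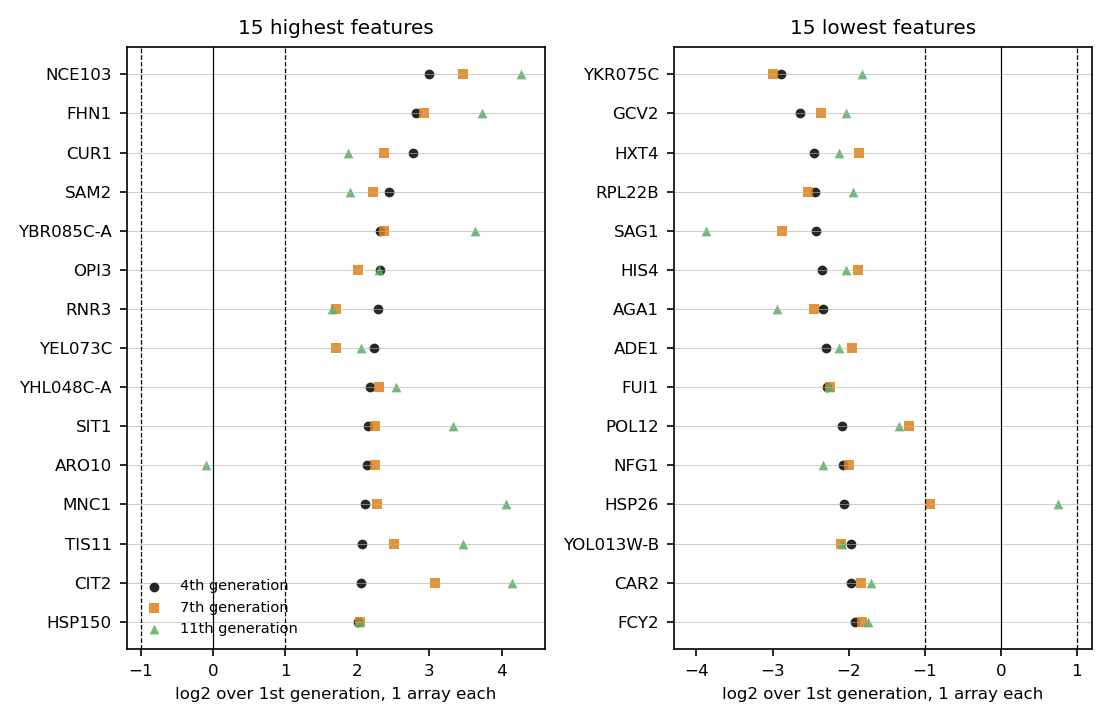
Log2 ratio over the 1st generation for the 15 highest and the 15 lowest features of the 4th generation (circles), with the value of the same feature at the 7th (squares) and 11th (triangles) generation, 1 array each, without error. Dashed lines mark 2-fold. HSP26 and ARO10 are the features whose 11th generation value lies on the other side of 0.

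Gene lists were described by their median and by the number of members past 2-fold. Of 64 lists, 12 were given the direction higher and 7 lower, where the median lay at least 0.3 from that of all features and kept its sign under each alternative processing. Over all features 51.7% were above 0, 2.17% were at least 2-fold higher and 2.49% at least 2-fold lower. The counts of list members below are to be read beside these shares. Since the lists were written with earlier results of these data known, their directions are a description and not independent evidence.

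Purine synthesis genes had a median of -0.84, and all 11 were below 0. The pathway builds inosine monophosphate in a series of steps and then branches to AMP and GMP. In this pathway 4 genes were at least 2-fold lower. ADE1, which adds aspartate to the growing ring, had raw signals of 759 in Cy5 and 597 in Cy3, a log2 ratio of -2.30. ADE17, which carries out the last steps to inosine monophosphate, had 1418 and 1382, a log2 ratio of -1.75. ADE2, which carboxylates the intermediate that turns mutant colonies red, had 3228 and 2321, a log2 ratio of -1.41. The bifunctional gene ADE5,7, listed as ADE57, was at -1.04. ADE16, the isozyme of ADE17, was at -0.05, from 349 and 1233, so the isozymes had unlike ratios. The entry enzyme ADE4 was at -0.41, and ADE12 and ADE13, which lead on to AMP, were at -0.77 and -0.84. None of the 4 genes of the GMP branch passed 2-fold: IMD2, an IMP dehydrogenase, was at 0.85, and GUA1, IMD3 and IMD4 were between -0.46 and -0.12.

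Glycine cleavage and folate one-carbon genes, which supply the carbon units that purine synthesis uses, had a median of -0.65, with 5 of 11 at least 2-fold lower. The glycine cleavage complex splits glycine into carbon dioxide, ammonia and a folate-bound carbon. Its decarboxylase gene GCV2 was at -2.64 and its lipoyl protein gene GCV3 at -1.90, from raw signals of 1156 and 730. GCV1 was at -0.65 and LPD1, which the complex shares with other dehydrogenases, at -0.61. The serine hydroxymethyltransferases of mitochondria and cytosol were low together: SHM1 had raw signals of 4740 and 3128, a log2 ratio of -1.48, and SHM2 had 5713 and 3305, a log2 ratio of -1.41. MTD1, a folate dehydrogenase, was at -1.23. MET13, the reductase that sends folate carbon to methionine, was the one member above 0, at 0.63. ADE3 is counted in this list and in the purine list, at -0.39.

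Several methionine genes were high. Of 17 genes of methionine uptake and the S-adenosylmethionine cycle, 4 were at least 2-fold higher and none lower, while the median was 0.17 and the list has no direction. SAM2 had raw signals of 862 and 8884, a log2 ratio of 2.44. Its isozyme SAM1 had 589 and 1599, a log2 ratio of 0.17. The high-affinity methionine permease MUP1 was at 1.63, from 1257 and 10554. MET6, the methionine synthase, was at 1.57 and the low-affinity permease MUP3 at 1.39. The regulators MET4 and MET31 were at -0.37 and -0.53. Sulfate assimilation, which makes the sulfide for methionine, had a median of 0.42 with no member past 2-fold; 10 of its 12 genes were above 0, led by MET16 at 0.86 and MET3 at 0.69.

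Pyrimidine synthesis and nucleobase uptake had a median of -0.66, with 4 of 13 genes at least 2-fold lower. The uridine permease FUI1 was at -2.29, from raw signals of 528 and 397, and FCY2 was at -1.92, from 1675 and 949. In the synthetic pathway the dihydroorotase URA4 was at -1.45 and the dihydroorotate dehydrogenase URA1 at -1.05. The uracil permease FUR4 was at -0.20 and the CTP synthase URA7 at 0.37. Histidine synthesis, which shares a precursor with purines, had all 6 listed genes below 0 and a median of -0.65. HIS4, with raw signals of 5423 and 1959, was the one of these past 2-fold, and HIS7 followed at -0.96. HIS3, which carries a deletion in this strain, is not in the list, and its probe read -1.29. Branched-chain amino acid genes had a median of -0.43, with ILV3, the dihydroxyacid dehydratase, at -1.29 from 8278 and 4983. Arginine and lysine synthesis, by contrast, had medians of 0.06 and -0.21 and no member past 2-fold.

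**Figure D4:**
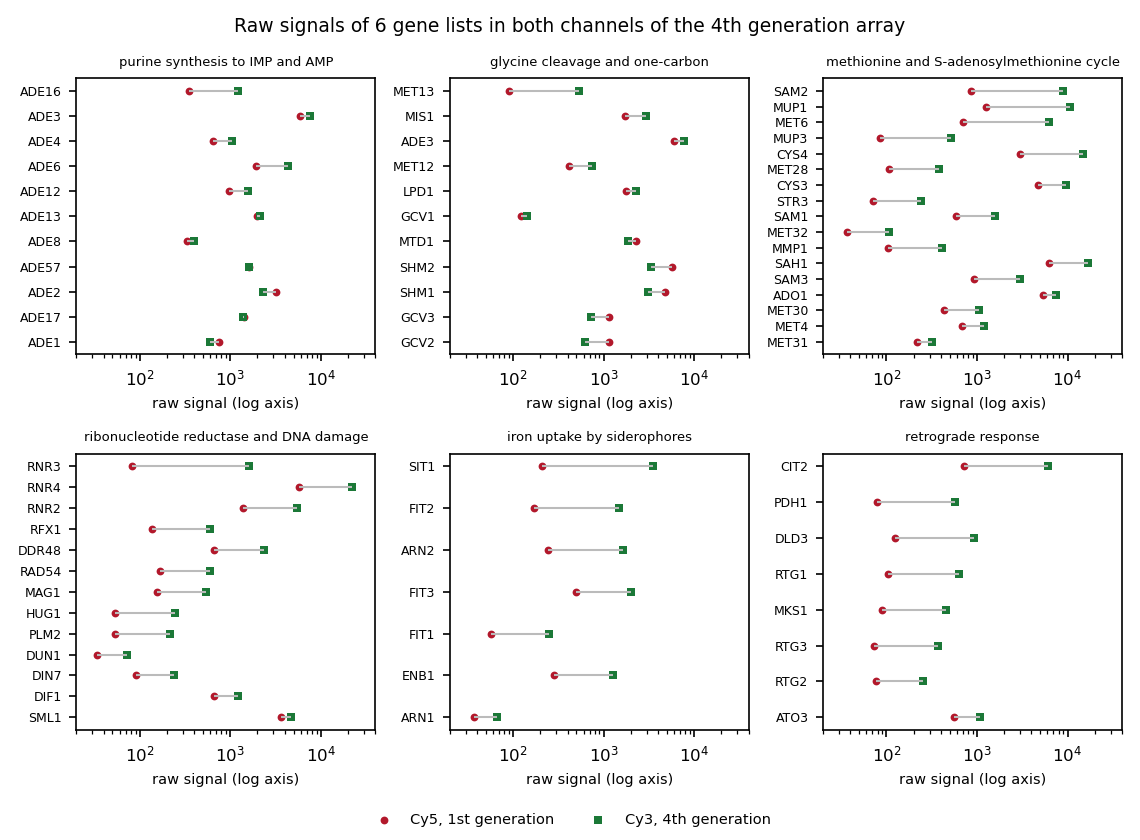
Raw signals on the 4th generation array for the members of 6 gene lists, with the 1st generation in Cy5 (circles) and the 4th in Cy3 (squares) on a log axis, 1 array and no error. Most genes have Cy3 well to the right of Cy5, as the median over features does at 523 against 177. For ADE1, ADE2, SHM1, SHM2, MTD1, GCV2 and GCV3, among others, the order is turned. For SAM2, RNR3 and SIT1 the gap is wide.

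Iron genes lay on the high side in both uptake lists. Siderophore uptake, in which iron carried by small chelators of other microbes is taken in, had a median of 0.94 over 7 genes, with 3 at least 2-fold higher. SIT1 had raw signals of 209 and 3477, a log2 ratio of 2.15. FIT2, a wall mannoprotein that holds siderophores, had 169 and 1472, a log2 ratio of 1.38. ARN2, another siderophore transporter, had 244 and 1639, a log2 ratio of 1.36. FIT3 was just under the limit at 0.94, and ARN1, whose Cy5 signal of 36.8 lay near the blank limit, was at -0.16.

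Reductive uptake and the iron-sparing response had a median of 0.51, with 3 of 21 genes at least 2-fold higher. None of these 3 encodes a protein that carries iron across the plasma membrane. TIS11, which destabilises mRNAs of iron-rich proteins, was at 2.07 from raw signals of 216 and 2376. HMX1, the heme oxygenase that frees iron from heme, was at 1.91 from 88.2 and 846. VHT1, the plasma membrane biotin transporter that is induced when iron-dependent biotin synthesis stops, was at 1.77 from 62.0 and 932. The high-affinity oxidase FET3 was at 0.82 and its permease partner FTR1 at 0.56, and the copper transporter CCC2 that loads the oxidase was at 0.86. The surface reductases FRE1 and FRE2 were at -0.63 and 0.09. In the zinc list IZH2 was at 1.33 and the zinc transporter ZRT1 at 1.07. ZRT1 read 0.47 and -0.66 on the 7th and 11th generation arrays.

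Phosphate genes lay on the low side, with a median of -0.53 and 5 of 16 at least 2-fold lower. VTC4, the polymerase that makes polyphosphate, was at -1.38, and its partners VTC1, VTC2 and VTC3 were at -0.89, -0.39 and -0.58. The acid phosphatases PHO5 and PHO3 were at -1.32 and -1.07. They are neighbours in the genome and close in sequence, so their probes may share signal. PHO3 is also counted in the list of thiamine and vitamin B6 genes. SPL2 and PHM6 were at -1.35 and -1.17. With loess over the whole array PHO5 and PHM6 were under 2-fold, at -0.71 and -0.87. In the authors' deposited values they were under it as well, at -0.94 and -0.98. PHO84, the main phosphate transporter, was at -0.55, while the sodium-coupled PHO89 was at 0.90.

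Ribonucleotide reductase genes were high and several replication genes were low. The list of ribonucleotide reductase and DNA damage genes had a median of 0.48, with 3 of 13 measured members at least 2-fold higher. RNR3 had raw signals of 81.6 and 1619, a log2 ratio of 2.29. RNR4, a small subunit, had 5813 and 22290, a log2 ratio of 1.64, and RNR2, the other small subunit, had 1400 and 5492, a log2 ratio of 1.12. In the authors' deposited values RNR4 and RNR2 were both under 2-fold. RNR1, the main large subunit, was at 0.94 and counted with the S-phase genes. The repressor gene RFX1 was at 0.92, the damage-inducible HUG1 at 0.42, and the reductase inhibitor SML1 at -0.52. Among 27 G1 cyclin and S-phase genes the median was -0.14 and 5 were at least 2-fold lower. These were POL12 at -2.09, the thymidylate synthase CDC21 at -1.46, the G1 cyclin CLN2 at -1.37, POL1, the catalytic subunit of polymerase alpha, at -1.27, and POL2 of polymerase epsilon at -1.06. With loess over the whole array POL1 and POL2 were under 2-fold. The related cyclin CLN1 was at 0.15. Of the licensing genes TAH11 was at 1.36 and ORC4 at -1.05, and the mitotic cyclin CLB1 was at 1.47.

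Among the mating lists only the alpha-specific one had a direction, lower. All 4 alpha-specific genes were below 0, with a median of -0.74: SAG1 was at -2.43 from raw signals of 2022 and 994, the a-factor receptor STE3 at -0.79, and the pheromone genes MF(ALPHA)1 and MF(ALPHA)2 at -0.70 and -0.57. Of the genes that pheromone induces, AGA1, the fusion gene FUS1 and the membrane fusion gene PRM1 were at -2.34, -1.89 and -1.44, the 3 of 15 measured members past 2-fold. The list as a whole had a median of -0.11 and no direction. FIG1, KAR4 and FIG2 were between -0.86 and -0.72, and the other 9 lay between -0.20 and 0.47. In the signalling cascade SST2, which turns the signal off, was at -1.23, with the G protein subunits GPA1 and STE18 at -0.86 and -0.78. The G beta subunit STE4 was at 0.36 and the kinase STE11 at 0.18. The a-specific genes had a median of 0.04.

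Wall proteins went both ways. HSP150 at 2.01, SPI1 at 1.39 and SED1 at 1.23 were at least 2-fold higher among 15 covalently bound wall proteins, while PIR1 and TOS6 were lower at -1.11 and -1.09. The yapsin protease YPS1 was at 1.56 and its relative MKC7 at -1.02. Chitin and glucan genes had a median of 0.36, with SKN1 at 1.25 and the glucanase-like SCW4 at -1.12. Among the seripauperins and cold-shock mannoproteins 5 of 26 measured members were at least 2-fold higher, led by TIR4 at 1.57 and TIR1 at 1.53. Their median of 0.30 lay too close to that of all features for a direction. The PAU genes are near copies of one another, so the signal of PAU9 at 1.23 or PAU10 at 1.08 may not be its own. In the eisosome list, with a median of 0.32, FHN1 at 2.81 was alone past 2-fold, and the core proteins LSP1 and PIL1 were at 0.73 and 0.52.

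Of the phospholipid genes, OPI3, CHO1, the phosphatidylserine synthase, and ITR1, the main inositol transporter, were at 2.31, 1.92 and 1.91. CHO1 had raw signals of 1490 and 10488 and ITR1 had 915 and 6614. The list of fatty acid and phospholipid genes had a median of 0.49 over 17 genes. CHO2, which carries out the methylation before OPI3, was at 0.26, the decarboxylase PSD1 between CHO1 and CHO2 at 0.91, and INO1, the inositol synthase, at 0.84. The fatty acid synthase genes FAS1 and FAS2 were at -0.50 and 0.59.

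Genes of protein quality control went both ways. The co-chaperone SIS1 (YNL007C) had raw signals of 647 and 8826, a log2 ratio of 1.93. CUR1 and its paralog BTN2, at 2.77 and 1.41, and the small heat shock protein HSP42, at 1.54, were high as well. HSP42 had raw signals of 131 and 1689. HSP26, the other main small heat shock protein, was at -2.06 from 439 and 238, and HSP31 was at -1.37. The disaggregase HSP104 was at 0.71. In the Hsp70 and Hsp90 system 3 of 22 genes were at least 2-fold higher and 1 lower. HSP82, the inducible Hsp90, was at 1.43, though under 2-fold in the authors' deposited values, and HSC82, the constitutive one, at 0.47. The Hsp40 YDJ1 was at 1.01 from 5980 and 14904, but in the authors' deposited log2 values it was at -0.24. The Hsp90 activator AHA1 was at -1.25, and the cytosolic Hsp70 genes SSA1, SSA2, SSA3 and SSA4 were at 0.17, 0.31, 0.16 and -0.59. In the endoplasmic reticulum ERO1, which oxidises folding proteins, was at 1.48 while the Hsp70 KAR2 was at 0.43. The mitochondrial chaperonin genes HSP60 and HSP10 were at -0.82 and -1.19.

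Proteasome subunits had a median of 0.46, and 26 of 33 were above 0. PRE1 and RPN13 passed 2-fold, at 1.15 and 1.04, and both were under it in the authors' deposited values centred by block. RPN4, the transcription factor of these genes, was at 0.69, and polyubiquitin UBI4 was at 0.80; all 12 genes of proteasome regulation and ubiquitin were above 0, between 0.13 and 0.80, with none past 2-fold. The vacuolar proteases PRB1 and PEP4 were at 1.79 and 1.46, from raw signals of 159 and 2184 and of 550 and 4742. The aminopeptidase APE1 was at -1.04, and the carboxypeptidase PRC1 was at -0.25. Of 36 autophagy genes ATG41 was past 2-fold, at -1.52, and the median was 0.19.

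Ribosome biogenesis genes lay mostly above 0. Cytosolic ribosomal protein genes lay mostly below 0, but their median was too small for a direction. Of 97 biogenesis genes 79 were above 0, the median was 0.38, and 7 were at least 2-fold higher. Those named by rule were NOP53 at 1.30, SDA1 at 1.28, NSR1 at 1.27, NOP56 at 1.16, the export adaptor NMD3 at 1.13 and RLP24 at 1.06. In the authors' deposited values NSR1, NOP56 and NMD3 were under 2-fold. Among the 136 cytosolic ribosomal proteins the median was -0.16, and 96 were below 0. None was at least 2-fold higher and 4 were at least 2-fold lower, close to the share of 2.49% lower among all features. In the authors' deposited values the median was -0.80, and -0.84 once they were centred by block. RPL22B had raw signals of 1306 and 784, a log2 ratio of -2.44, while its paralog RPL22A had 28290 and 25571, a log2 ratio of 0.01. RPS9A was at -1.19 and RPS9B at -0.15. RPL12B was at -1.06 and RPL12A at -0.28. RPL3, at -1.60, had a raw Cy5 signal of 61243, close to the top of the scanner's range. In each of these 3 paralog pairs the copies had unlike ratios, and near-identical copies may share signal. The 69 mitochondrial ribosomal protein genes had a median of 0.06 and none past 2-fold.

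Transcripts of 3 sugar transporters were low, and most central carbon genes lay near 0. HXT4 and HXT1, which lie next to each other in the genome, were at -2.45 and -1.58, and HXT7 was at -1.18. HXT1, a low-affinity transporter, had raw signals of 4450 and 2777. The brighter HXT3 and HXT2 did not pass 2-fold: HXT3 had 12376 and 13025, a log2 ratio of -0.17, and HXT2 had 11521 and 9684, a log2 ratio of -0.50. HXT6, nearly identical to HXT7 in sequence, had raw signals of 34.2 and 61.3, a log2 ratio of -0.10, near the blank limits. The list of 13 measured transporters had a median of -0.17 and no direction, but the median was -1.12 with median centring of each block, -1.49 in the authors' deposited values and -1.04 in these values centred by block. Of 21 glycolytic and fermentation genes ENO1 and GLK1 passed 2-fold at 1.14 and 1.00, though ENO1 was at 0.95 with median centring of each block, 0.31 in the authors' deposited values and 0.65 in these values centred by block. The isozyme ENO2 was at 0.05, PGK1 was at -0.95, and TDH3, whose Cy5 signal was saturated, was at -0.32.

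Mitochondrial signalling to the nucleus, the retrograde response, had a median of 0.50 with 3 of 8 genes at least 2-fold higher. CIT2, its classical reporter, had raw signals of 711 and 6030, PDH1, a 2-methylcitrate dehydratase, was at 1.58, and DLD3 was at 1.03. The regulators RTG1, RTG3 and MKS1 were between 0.48 and 0.52 and RTG2 at -0.11. Of 15 genes of the TCA cycle none passed 2-fold: CIT1 was at 0.70 and ACO1 at -0.95. In the respiratory chain CYC1, the aerobic cytochrome c, was alone past 2-fold at -1.56, from 238 and 158, and the median of 23 genes was -0.02. The 7 measured genes of mitochondrial DNA had a median of 0.07. General stress genes had a median of 0.36, with SPI1 at 1.39 past 2-fold. The catalase CTT1 was at 0.11, and 28 antioxidant enzymes had a median of -0.25 with GPX2 at -1.38. Sirtuin and rDNA silencing genes held none past 2-fold, with SIR2 at -0.12 and FOB1 at -0.01. The longevity kinases held none either, with SCH9 at 0.38 and TOR1 at -0.18.

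**Figure D5:**
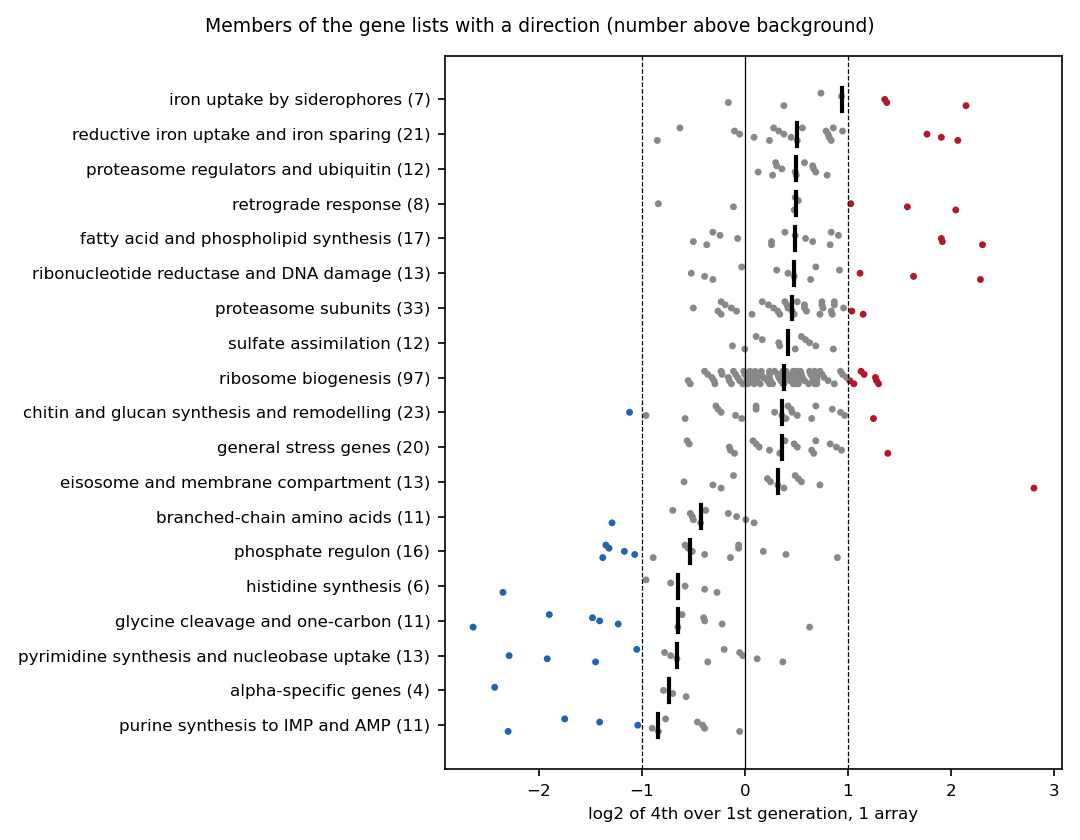
Log2 ratio of the 4th over the 1st generation for each measured member of the 19 gene lists with a direction (points, 1 array, no error), with the median of the list as a black bar and the number of measured members in brackets. Red and blue points are at least 2-fold higher and lower. Siderophore uptake has a median of 0.94 and purine synthesis one of -0.84, at the ends of the plotted range of medians, an order that changes with the processing, and each list has members that lie within 2-fold.

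The 1st generation channel was not the same on all arrays for every gene called here. The highest raw Cy5 signal of the 3 arrays was at least 2-fold above the lowest for 195 of 5659 features above background, 3.45%. Among the 123 features at least 2-fold higher it did so for 2, and among the 141 lower for 18, 12.8%. In 11 of these 18 the Cy5 signal was highest on the 4th generation array, and 7 of those 11 lay in print blocks 1 and 2. These blocks held 30 of all 141 lower features, and 365 and 367 of the 5799 feature spots. ATP5, a stalk subunit of the ATP synthase, is the extreme: its raw Cy5 signal was 2976, 448 and 1059 at the 4th, 7th and 11th generation, and its log2 ratio was -1.63, -0.20 and -0.06. The mitotic exit gene MOB1 had Cy5 signals of 641, 214 and 234 and Cy3 signals of 774, 825 and 1034, with log2 ratios of -1.58, 0.04 and 0.12. On the 4th generation array its Cy5 signal was the high one of the 3. POL12 had Cy5 signals of 337, 147 and 151 and Cy3 signals of 167, 148 and 153. URA4, HXT7, RPL22B, NSR1, VTC4, ADE1 and RPS9A also had a Cy5 range of over 2-fold. The part of the reference channel in their ratios was not tested.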

How the data were processed

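Raw intensities of both channels were taken from the deposited array files; per the file headers they are signals without background subtraction. The authors' deposited log2 ratio in the series table, made per the file headers after background subtraction and global normalisation, was an alternative. The others were loess over the whole array, block medians, a wider span, plain subtraction, no correction and other filters on dim features. Intensities were corrected by normexp with an offset of 50 in limma 3.58.1 (R 4.3.3) and normalised by loess (span 0.3) within each of 16 print blocks of 392 spots, with control spots at weight 0. Spots of a feature were averaged. Above background means a raw signal over the mean plus 2 SD of 320 blank spots (32.2 in Cy5, 56.6 in Cy3). Of 5792 features, 5730 matched the RefSeq R64 gene table; 35 that name several loci were not named. The procedure was tested on simulated data, where the recovery of known ratios was checked for bright features only. Python 3.11.15 was used for counts and figures.

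Named genes were the 15 highest and 15 lowest past 2-fold, up to 6 members past 2-fold of each list, and 2 features on each side of the limit. Genes shown with shifting reference signals or side by side as isozymes, and neighbours in a pathway that did not pass 2-fold, were added with their values. Members and lists were chosen with earlier results of these data known. 1 gene list and 1 member of another list are not reported here. A planned comparison of promoter motifs was not run, since promoter sequences were not used here.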

Additional observations from a re-analysis of the deposited data

How the results depend on the processing

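Against 123 higher and 141 lower, loess over the whole array gave 237 and 206, median centring of each block 258 and 277, plain subtraction of the blank signal 322 and 324, the authors' deposited log2 values 590 and 527, and these values centred by block 331 and 408. Of the 123, 98, 116, 121, 96 and 91 were called under these settings in turn, and of the 141, 102, 92, 141, 120 and 141. Without background correction the counts were 149 and 172, with a wider span 131 and 128, and neither filter on dim features changed them. For the 19 lists with a direction the medians kept their sign by the definition of a direction, so that is no evidence of robustness. In the deposited values the medians of alpha-specific genes, of glycine cleavage and one-carbon genes and of retrograde genes moved to -1.48, -1.59 and 1.32. Other medians of lists with a direction shrank. General stress genes went from 0.36 to 0.09 with median centring, and branched-chain genes from -0.43 to -0.13 with loess over the whole array. Proteasome subunits went from 0.46 to 0.23 in the deposited values, and chitin and glucan genes from 0.36 to 0.14 in those centred by block. Lists without a direction moved too: hexose transporters from -0.17 to -1.12 with median centring, -1.49 in the deposited values and -1.04 in those centred by block, and cytosolic ribosomal proteins from -0.16 to -0.80 and -0.84 in the last 2. PIR wall proteins were at -0.60 in the deposited values, and pheromone-induced genes, glycolysis and histones at -0.81, -0.63 and -0.69 in those centred by block. Without a filter on dim features the median of the small heat shock and sorting list, 0.70, turned to -0.01, because its 3 members at background were then counted. YDJ1 turned to -0.24 in the deposited values; the cause was not tested. Of 125 named features past 2-fold, 106 stayed past it with loess over the whole array, 109 with median centring, 118 with a wider span, 107 in the deposited values and 110 in those values centred by block. RNR2, RNR4, HSP82, RPN13, NOP56, NMD3, POL1, POL2, ENO1, PHO5, APE1 and TOS6 were among those under 2-fold in at least one setting. Of 129 named features, 7 moved by over 1.5-fold with loess over the whole array, 1 with median centring, 13 with plain subtraction, 50 in the deposited values, where 1 more turned, and 20 in those centred by block. No paired analysis was possible because the comparison rests on 1 array. The offset of 50 understates ratios of dim features, and one array without a dye swap gives neither an error nor a check on dye effects.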

Other observations

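Of 5587 neighbouring pairs of measured single-locus features, 6 were both at least 2-fold higher, 6 both lower and 4 opposite. The pairs called in the same direction, picked out after their values were seen, included BTN2 and SKN1 at 1.41 and 1.25, PUF6 and ITR1 at 1.10 and 1.91, HXT4 and HXT1, PHO3 and PHO5, and YOL163W and YOL162W at 1.14 and 1.52. TAR1 and YLR154C-G, short genes that lie in the ribosomal DNA region, were at -1.91 and -1.76, and YLR154C-G read -0.39 at the 11th generation. BTN2 and SKN1 were the one pair printed in the same block.

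Other genes past 2-fold in this comparison read near or beyond 0 later, in values again picked out after they were seen. ICY1 was at -1.05, -0.66 and 0.79 at the 4th, 7th and 11th generation, APE1 at -1.04, -0.39 and 0.71, and the serine deaminase CHA1 at -1.16, -0.09 and 0.45. CHA1 also had a raw Cy5 signal of 1187, 474 and 650 on these arrays.

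Among genes whose process is marked unknown on the array, 33 of 1321 were at least 2-fold higher and 37 lower, beside 90 and 104 of 4338 with a process given. Features that name several loci, mostly repeats, had a median log2 ratio of 0.18 over 31 above background, from -0.28 to 0.75, with none past 2-fold. By chromosome the share at least 2-fold higher ran from 0% on chromosome I (of 84 features) to 4.18% on chromosome V (of 263), and none of the 16 mitochondrial features was called.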
